A study of Homo sapiens with 19 samples.

Results

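The genes described here are the ZNF genes of human chromosome 19, taken as the protein-coding genes of the GENCODE release 44 annotation (build hg38) that lie on that chromosome and are named ZNF followed by digits only. There were 240 of them, among 1476 coding genes on chromosome 19 and 20033 coding genes in all. The rule used names and positions only, and no measured value. In every one of the 240 encoded proteins at least 1 C2H2 zinc finger was found, with a median of 12 fingers and a maximum of 36 (ZNF208), and 206 proteins (85.8%) held a stretch similar to the KRAB domain of ZNF10, against 2.91% of the other chromosome 19 coding genes.

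C2H2 zinc finger proteins bind DNA through tandem fingers, each of which contacts a few bases. In most genes of this family the fingers are joined to a KRAB domain, which recruits TRIM28 (KAP1) and, through it, the H3K9 methyltransferase SETDB1, heterochromatin proteins and histone deacetylases. KRAB zinc finger proteins are best known as repressors of transposable elements, among them endogenous retroviruses, and their genes arose largely by tandem duplication, which left them in clusters along chromosome 19.

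The study asked whether endogenous retrovirus long terminal repeats act as enhancers in acute myeloid leukaemia (AML), and measured histone marks and dCas9 binding by ChIP-seq in leukaemia cell lines. Of its 19 samples, 5 had a peak list that was used here, each from 1 library. The H3K27ac lists, a mark of active promoters and enhancers, came from untreated HL-60 and untreated Molm13 cells (both AML lines) and from OCI-AML3 (AML) and K562 (chronic myelogenous leukaemia) cells transduced with an empty sgRNA vector. The peak names inside the last 2 lists carry the line and dCas9 and do not name the vector, so that assignment rests on the deposit's record. The fifth list gave dCas9 binding in K562 cells that carried sgRNAs against the LTR2B family of long terminal repeats. The OCI-AML3 and K562 cells, empty-vector cells included, also expressed a KRAB-dCas9 fusion from the SFFV promoter of a lentivirus and were sorted for its mCherry reporter. The other 14 samples, among them the H3K9me3 libraries, the inputs and the K562 empty vector dCas9 library, were not analysed here. With 1 library a group there was no replicate check, no test between lines was possible, and no p-value is given.

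Several of the ZNF genes lie beside sites of the LTR2B sgRNAs, so the sgRNAs are shown first. Each sgRNA has 20 bases:
sgRNA1: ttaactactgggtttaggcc
sgRNA2: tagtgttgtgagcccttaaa
sgRNA3: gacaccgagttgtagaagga
sgRNA4: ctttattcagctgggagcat

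The lists differed in length. On chromosomes 1 to 22, X and Y, 20772 H3K27ac peaks were listed for HL-60, against 35136 (Molm13), 37571 (OCI-AML3) and 37424 (K562), and the dCas9 list held 393. The files hold peaks and no read totals, so the depth behind each list is unknown. The cell lines were checked against marker genes: start sites of all 6 erythroid genes reported (GATA1, KLF1, TAL1, HBG1, HBG2 and EPOR) were marked in K562 and in no other line, and of 7 myeloid genes 6, 7, 7 and 3 were marked in HL-60, Molm13, OCI-AML3 and K562. Of 5 lymphoid genes reported 2, 1, 1 and 2 were marked in the same order. CD79A was marked in every line, with fold enrichments of 3.32 (HL-60), 5.12 (Molm13), 2.56 (OCI-AML3) and 2.93 (K562). PAX5 was marked in HL-60 only (2.93) and EBF1 in K562 only (2.46), whereas CD3E and CD3G were marked in none. What part these lymphoid marks play in the values of each line, HL-60 included, was not tested.

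A gene is called marked in a line when its Ensembl canonical transcription start site (TSS) lay within 500 bp of an H3K27ac peak. HL-60, which had the shortest list, marked the most ZNF genes. In HL-60, 172 of 240 ZNF genes were marked (71.7%, Wilson 95% interval 65.7 to 77.0), against 40.8% of the 1236 other chromosome 19 coding genes and 41.0% of all coding genes. Molm13 marked 136 of them (56.7%, 50.3 to 62.8), against 54.4% and 49.9%. OCI-AML3 marked 158 (65.8%, 59.6 to 71.5), against 55.3% and 54.0%, and K562 marked 162 (67.5%, 61.3 to 73.1), against 56.2% and 52.1%. The ZNF genes were thus 30.9 percentage points (interval 24.3 to 36.9) above the other chromosome 19 coding genes in HL-60, 11.3 (4.53 to 17.5) in K562, 10.5 (3.70 to 16.8) in OCI-AML3 and 2.30 (-4.60 to 9.02) in Molm13. When any annotated start site was allowed, the Molm13 difference turned to -2.10 points and the K562 difference was 4.58. With the start site inside the peak K562 stood at 6.25 points, and Molm13 at 0.934 with a distance of 1000 bp. With peaks of q below 0.001 the differences were 7.01 (K562) and 6.30 (OCI-AML3), and with lists shortened to equal length OCI-AML3 stood at 3.43. Intervals cover the counting error over genes only, and neighbouring genes share chromatin and are not independent.

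**Figure D1:**
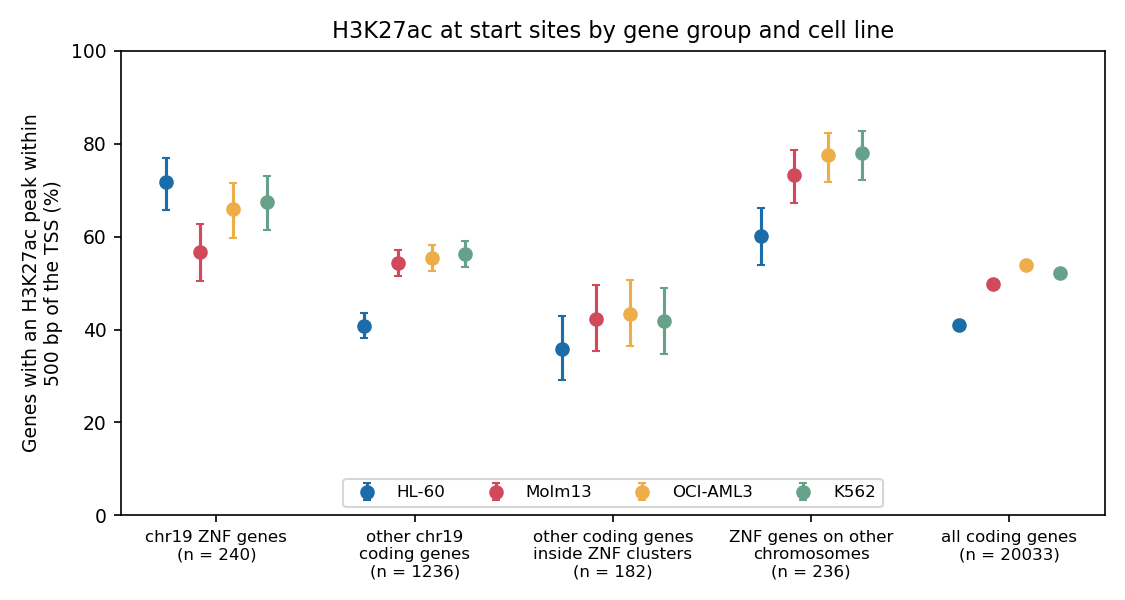
Share of genes (percent, y axis) with an H3K27ac peak within 500 bp of the canonical TSS, for 5 gene groups (x axis, with the number of genes) and 4 cell lines (colours); points are shares and bars are Wilson 95% intervals. HL-60 has the highest share among the chr19 ZNF genes (71.7%) and the lowest share in each of the other groups.

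The larger gene groups used for comparison had HL-60 lowest. Among the 236 ZNF genes on other chromosomes, chosen by the same name pattern, HL-60 marked 60.2%, below Molm13 (73.3%), OCI-AML3 (77.5%) and K562 (78.0%). The 182 other coding genes inside the ZNF clusters were marked in 35.7%, 42.3%, 43.4% and 41.8% of cases in the same order of lines. A set of 24 further chromosome 19 genes whose names begin with ZFP, ZSCAN, ZIM or ZIK, or with ZNF and more than digits, had HL-60 highest as well, with 14 marked in that line, 11 in each of K562 and OCI-AML3, and 9 in Molm13. When every list was shortened to its 20772 strongest peaks, the ZNF genes marked numbered 172, 126, 123 and 144, and HL-60 was highest under each of the 7 settings computed.

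Counted gene by gene, 106 ZNF genes (44.2%) were marked in all 4 lines and 33 (13.8%) in none, against 37.5% and 35.4% of the other chromosome 19 coding genes. For the ZNF genes on other chromosomes these shares were 55.5% and 16.1%. Without the HL-60 list, 119 of the chromosome 19 ZNF genes were marked in all of the other 3 lines and 54 in none of them. HL-60 alone marked 21 ZNF genes (8.75%), where it alone marked 5 (0.405%) of the other chromosome 19 coding genes. K562 alone marked 12 of 240 (5.0%), OCI-AML3 alone 3 (1.25%) and Molm13 alone none. Among the other chromosome 19 coding genes these shares were 6.15%, 1.38% and 1.78%. Between the HL-60 and Molm13 lists, 52 ZNF genes were marked in HL-60 only and 16 in Molm13 only, and among the other chromosome 19 coding genes these numbers were 14 and 182. Molm13 and OCI-AML3 were closest, with 131 ZNF genes marked in both, 5 in Molm13 without OCI-AML3 and 27 in OCI-AML3 without Molm13.

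**Figure D2:**
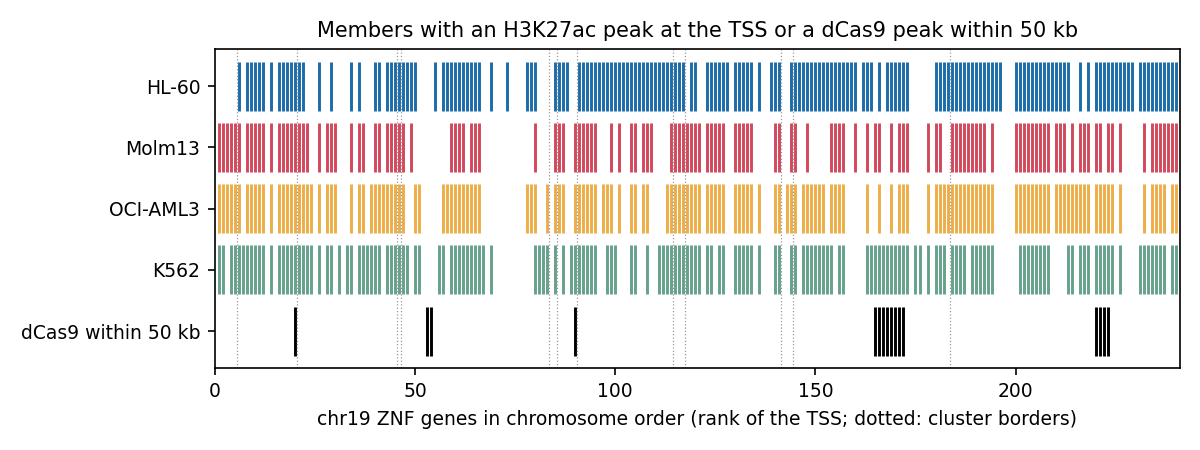
The 240 chr19 ZNF genes in chromosome order (x axis, rank of the TSS); a line in a row means an H3K27ac peak within 500 bp of the TSS in that cell line or, in the bottom row, a dCas9 peak within 50 kb of the gene body, and dotted lines are cluster borders. The longest run of marked genes is 27 in HL-60, which takes in the ZNF565 to ZNF573 cluster and genes outside clusters that follow it in rank.

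Start sites separated by gaps of at most 1 Mb were joined, which gave 9 clusters of at least 5 ZNF genes with 231 of the 240 genes, named here by their first and last members. They covered 16.7 Mb, or 28.5% of chromosome 19. In the order of start sites, the longest marked run in HL-60 was 27 ZNF genes, from ZNF565 to ZNF526. It took in the ZNF565 to ZNF573 cluster and then ZNF546, ZNF574 and ZNF526, which lie outside clusters. In Molm13, 13 successive ZNF genes from ZNF43 to ZNF91 were all unmarked. Run lengths were not computed for other genes.

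The cluster from ZNF565 to ZNF573 (chr19:36214665-37779586, from first to last TSS) was marked throughout in HL-60. All 24 of its members were marked in HL-60, with fold enrichments of 3.25 to 9.21, against 13 in Molm13, and 15 in each of OCI-AML3 and K562. Fold enrichment is the signal of a peak over the background that the peak caller MACS2 estimates for it, and is compared here within a list only. Marked in HL-60 alone were ZNF382, ZNF829, ZNF568, ZNF875 and ZNF793. ZNF793 (TSS at chr19:37506939) had a fold enrichment of 8.87 and a peak of 954 bp in HL-60 and no peak within 500 bp in the other lines. ZNF829 and ZNF568 start 41 bp apart on opposite strands and shared a 560 bp peak of fold enrichment 6.31, so these count as 1 mark. ZNF568 encodes a KRAB zinc finger protein known in the mouse (Zfp568) for repressing a placental transcript of Igf2.

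The opposite arrangement was found in the smallest cluster, from ZNF554 to ZNF77 (chr19:2819868-2944971), which holds no other coding gene start. None of its 5 members was marked in HL-60, where the cluster had no peak at all, while Molm13 and OCI-AML3 each marked all 5 and K562 marked 4. ZNF77 had fold enrichments of 8.08, 3.29 and 3.91 in Molm13, OCI-AML3 and K562, and its nearest HL-60 peak lay 5178 bp away. For ZNF57 the values were 5.97, 3.57 and 2.66, and its nearest HL-60 peak was 49221 bp away. ZNF556 was the member without a peak in K562.

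**Figure D3:**
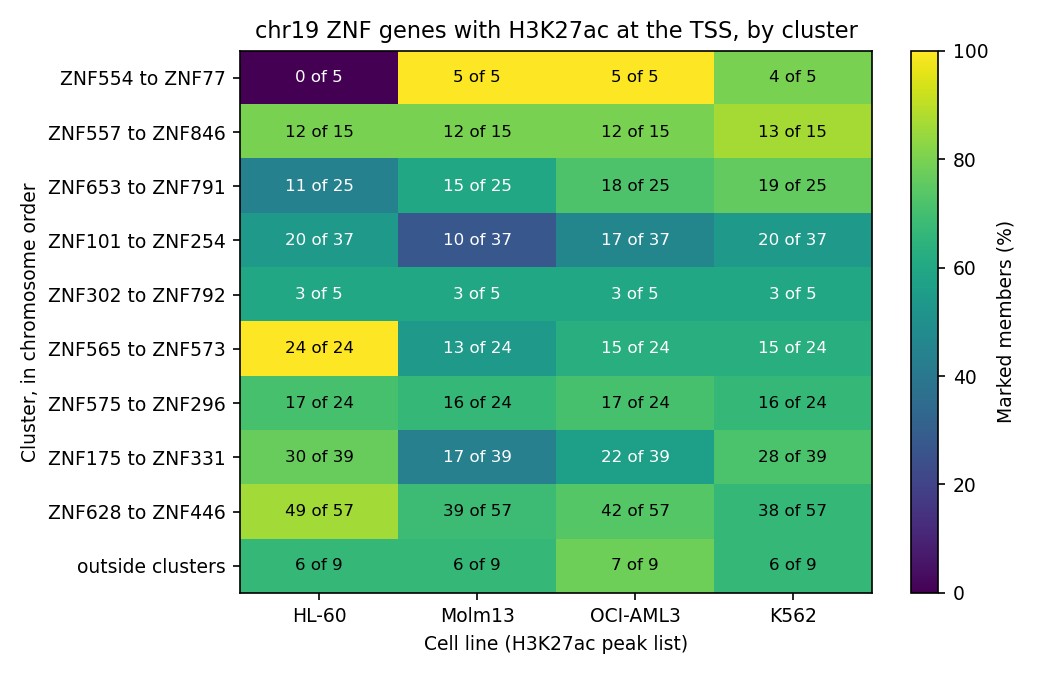
Chr19 ZNF genes with an H3K27ac peak at the TSS, by cluster in chromosome order (rows) and cell line (columns); cells give the number marked of the number of members and are coloured by percent. The ZNF554 to ZNF77 cluster has 0 of 5 in HL-60 and the ZNF565 to ZNF573 cluster 24 of 24.

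The cluster from ZNF101 to ZNF254 (chr19:19668839-24087187), which lies on the short arm next to the centromere, had the lowest share of marked members among the 6 clusters of 24 or more genes in Molm13, OCI-AML3 and K562, while in HL-60 the ZNF653 to ZNF791 cluster was lower, with 11 of 25. Of its 37 members, HL-60 and K562 each marked 20, OCI-AML3 17 and Molm13 10, and 11 were marked in none of the 4 lines. The H3K27ac peaks were sparse there, from 4.07 peaks per Mb in Molm13, through 6.11 in OCI-AML3 and 7.92 in HL-60, to 11.3 in K562. The 11 unmarked members included ZNF208, ZNF676 and ZNF729. Some marked genes within it had high values in some of the lines. The medians over all marked ZNF genes were 5.18, 6.69, 3.52 and 3.54 in HL-60, Molm13, OCI-AML3 and K562. ZNF100 had fold enrichments of 6.18, 14.5, 5.00 and 4.55 in HL-60, Molm13, OCI-AML3 and K562, and ZNF429 had 10.3, 7.08, 5.09 and 3.62. ZNF91, which encodes the repressor of SVA elements, was marked in HL-60 (5.13) and OCI-AML3 (2.94) and not in Molm13 or K562.

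The cluster from ZNF175 to ZNF331 followed the HL-60 order, with 30 of 39 members marked in that line, 28 in K562, 22 in OCI-AML3 and 17 in Molm13. HL-60 was highest too in the largest cluster, from ZNF628 to ZNF446, with 49 of 57, and 42 (OCI-AML3), 39 (Molm13) and 38 (K562) in the others. It held 7 of the 21 genes marked in HL-60 alone, among them ZNF814 (fold enrichment 7.63), and the unmarked genes ZNF470, ZNF71, ZNF835, ZNF154 and ZNF135. In the cluster from ZNF653 to ZNF791 the order was turned, with HL-60 at 11 of 25, Molm13 at 15, OCI-AML3 at 18 and K562 at 19. The cluster from ZNF557 to ZNF846 was marked evenly, with 12 of 15 in each of the AML lines, all 12 of them in all 4 lines, and 13 in K562. Its unmarked members were ZNF177 and ZNF560. The cluster from ZNF575 to ZNF296 was likewise even at 17, 16, 17 and 16 of 24, and ZNF404, ZNF284, ZNF233, ZNF112 and ZNF285 were unmarked in all 4 lines. The 5-member cluster from ZNF302 to ZNF792 had 3 marked in every line.

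H3K27ac peaks were sparser inside the clusters than outside in 3 of the 4 lines. Inside there were 21.2, 19.9 and 21.2 peaks per Mb for Molm13, OCI-AML3 and K562, against 33.0, 28.2 and 32.7 on the rest of chromosome 19. In HL-60 the densities were 18.7 and 18.7, while its peaks covered 1.89% of the bases inside and 2.75% outside. Single clusters differed widely. ZNF575 to ZNF296 had 49.9, 39.5 and 36.3 peaks per Mb in Molm13, OCI-AML3 and K562, above the values outside. ZNF101 to ZNF254 had 4.07, 6.11 and 11.3. A large part of what was called inside the clusters lay at ZNF start sites: 51.8% of the peaks in HL-60, and 35.0%, 44.4% and 42.9% of those in the other lines in the same order.

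The peaks at ZNF start sites were narrow, and about as enriched as those of other genes. The median width was 863 bp in HL-60, against 1488 bp at the other chromosome 19 coding genes, and in Molm13, OCI-AML3 and K562 it was 1233, 1227 and 1568 bp, against 2342, 2136 and 2722 bp at the other chromosome 19 coding genes. Median fold enrichments were 5.18, 6.69, 3.52 and 3.54, against 5.48, 6.75, 3.86 and 3.56. ZNF genes on other chromosomes lay between the 2 groups in width, with medians of 1095, 1529, 1642 and 2212 bp. The 106 genes marked in all 4 lines had the widest peaks by median in each line, at 1008 bp (HL-60), 1273 (Molm13), 1446 (OCI-AML3) and 1913 (K562). Below that the order differed between lines: genes marked in 1, 2 and 3 lines had medians of 560, 613 and 698 bp in HL-60, but 1467, 1418 and 1106 bp in K562, and in OCI-AML3 817, 866 and 581 bp, the first over 3 genes only. Median distances of unmarked ZNF genes to the nearest peak ran from 39256 bp (HL-60) to 50861 bp (OCI-AML3), and at most 3 per line had a peak within 1 kb. These distances were not computed for unmarked genes of other groups.

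**Figure D4:**
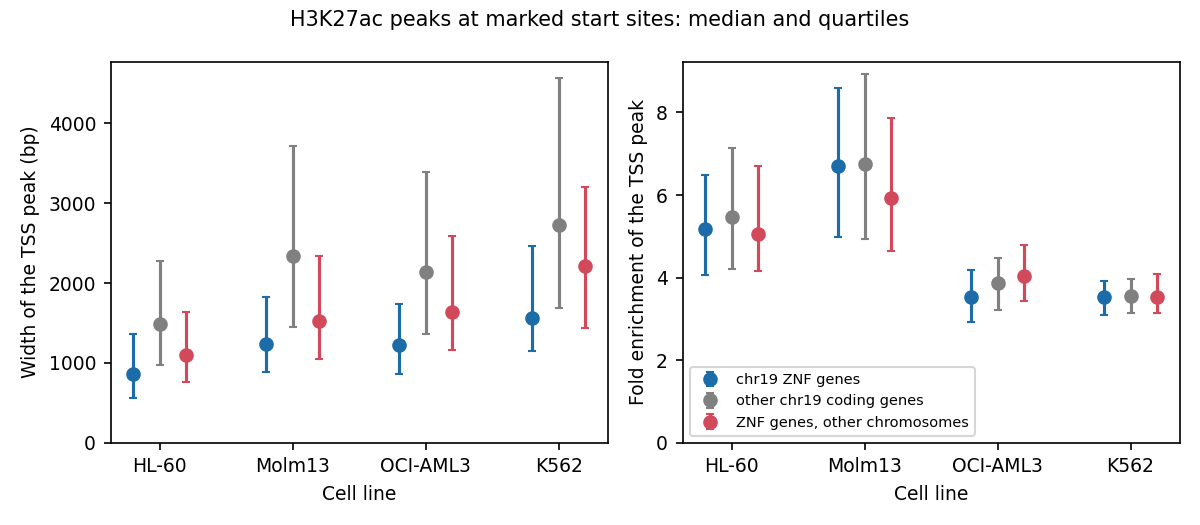
Width in bp (left) and fold enrichment (right) of the H3K27ac peak at marked start sites, by cell line (x axis) for chr19 ZNF genes, other chr19 coding genes and ZNF genes on other chromosomes; points are medians and bars run from the first to the third quartile. The chr19 ZNF genes have the lowest median width in each line, 863 to 1568 bp.

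The strongest peaks at ZNF start sites were mostly at genes marked in all 4 lines. ZNF561 led in HL-60 at 12.6 fold, and had 4.11 in K562, 5.72 in OCI-AML3 and 9.18 in Molm13. Its neighbour ZNF562 followed in HL-60 with 11.4 and led in K562 with 5.79, and had 4.76 in Molm13 and 2.81 in OCI-AML3. ZNF766 (10.5) and ZNF181 (10.4) came next in HL-60. ZNF302 led in Molm13 at 15.2, with 8.49 in HL-60, 3.21 in OCI-AML3 and no peak in K562. ZNF700 led in OCI-AML3 at 7.96, and had 6.49, 13.9 and 4.88 in HL-60, Molm13 and K562. ZNF460 (13.4) and ZNF274 (12.9) were further strong genes in Molm13; ZNF274 protein itself binds the 3' ends of zinc finger genes and recruits SETDB1 there. In OCI-AML3, ZNF101 (5.45), ZNF587 (5.37) and ZNF383 (5.37) stood near ZNF561, and in K562 ZNF564 (5.35), ZNF675 (5.07), ZNF714 (4.89) and ZNF428 (4.88) followed ZNF562. The region around the ZNF587 start is in part a repeat of other sequence, with 84.9% of its 75-base words occurring once in the genome.

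Among genes marked in HL-60 alone, ZNF793 was followed by ZNF610 (8.59), ZNF814, and the pair ZNF829 and ZNF568. The genes marked in K562 alone were led by ZNF681 (4.60), ZNF563 (3.88), ZNF30 (3.67), ZNF347 (3.46) and ZNF726 (3.44), and those in OCI-AML3 alone were ZNF114 (4.06), ZNF530 (2.49) and ZNF709 (2.28). The OCI-AML3 peak of ZNF114 was 1777 bp wide and lay 450 bp from its start. The nearest peaks in HL-60 and Molm13 lay 519 and 725 bp from that start, outside the 500 bp limit, and in K562 9785 bp. The widest peaks on average were at ZNF414, ZNF526, ZNF581, ZNF580 and ZNF787. ZNF414 had widths of 2076, 6173, 6219 and 3026 bp in HL-60, Molm13, OCI-AML3 and K562. None of these 5 had a KRAB match, and ZNF580 and ZNF581 are neighbours that shared a peak in 3 of the lines.

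The marks are given next by whether the protein had a KRAB match. ZNF10 was the only query, so a protein without a match is not shown to lack a KRAB domain. The 206 members with a KRAB match were marked in 70.9% of cases in HL-60, 65.5% in K562, 63.6% in OCI-AML3 and 52.9% in Molm13. The 34 members without one were marked in 76.5% in HL-60 and 79.4% in each of the other lines. All 21 genes marked in HL-60 alone had a KRAB match. So did 94 of the 101 members marked in 1 to 3 lines (93.1%), which include these 21, and 85.8% of all members. A run of genes without a KRAB match opens the ZNF628 to ZNF446 cluster, where ZNF628, ZNF579, ZNF524, ZNF865, ZNF580, ZNF581, ZNF787 and ZNF444 were marked in all 4 lines. ZNF784, which lies within this run, was marked in 3 lines and not in K562, where the nearest peak was 9766 bp away. The KRAB corepressor genes themselves were nearly all marked. Of 22 listed genes, 19 were marked in HL-60 and 22 in each of the other lines, including TRIM28 (3.96, 5.67, 3.85 and 3.46) and SETDB1 (6.28, 8.14, 4.20 and 4.73). Over all coding genes the marked shares were 41.0%, 49.9%, 54.0% and 52.1% in HL-60, Molm13, OCI-AML3 and K562.

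The sequence at the start sites was next compared between the groups. Words of 75 bases within 500 bp of the start were unique in the genome for 221 of 240 members, and the lowest share in any member was 81.1%. Among the 33 unmarked members, 29 had only unique words and the lowest share was 90.5%. From 250 bases before to 50 after the start, members marked in none of the lines had a median of 16 CG dinucleotides and those marked in all 4 had 22. This count differed between clusters, with a median of 10 from ZNF101 to ZNF254 and of 16 to 25 in the other clusters. The ZNF101 to ZNF254 cluster held 11 of the 33 unmarked members, and CG counts by mark were not compared within clusters. The 5 members with 6 or fewer CG dinucleotides were ZNF676, ZNF536, ZNF404, ZNF114 and ZNF83, of which the first 3 were unmarked in every line. In 13 members a divergent coding gene starts nearby. All 13 were marked in HL-60, 10 (76.9%) in K562, and 9 (69.2%) in each of Molm13 and OCI-AML3. Over all 240 ZNF genes the shares were 71.7% in HL-60, 67.5% in K562, 56.7% in Molm13 and 65.8% in OCI-AML3. The ZNF565 to ZNF573 cluster, marked throughout in HL-60, held 6 of the 13. Of these 13, 8 form 4 pairs of members that face each other and share a peak wherever they are marked, so there were 9 separate start regions, of which 9 were marked in HL-60 and 7 in each of the other lines.

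The letters CCAAT (on either strand, the motif bound by NF-Y) occurred in this window in 52.1% of the members and 37.4% of the other chromosome 19 coding genes, and followed the clusters. They occurred in 97.3% of members from ZNF101 to ZNF254, 92.0% from ZNF653 to ZNF791 and 5 of 5 from ZNF554 to ZNF77, but in 16.7% from ZNF565 to ZNF573 and 16.7% from ZNF575 to ZNF296. Members marked in none of the lines held them in 51.5% of cases and those marked in all 4 in 47.2%. TATAAA occurred in 2.92% of the members and 7.69% of the others, and GGGCGG in 69.2% and 66.1%.

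Upstream windows of 250 bases, ending at the base before the canonical TSS, are shown for 3 members without an annotated exon there (hg38), because ZNF100 and ZNF681, whose windows are the more alike, differed in their mark, and ZNF77 for its copies of CCAAT. ZNF100 (chr19:21767580-21767829, minus strand) was marked in all 4 lines, and ZNF681 (chr19:23758892-23759141, minus) in K562 alone, and both belong to the ZNF101 to ZNF254 cluster. ZNF77 (chr19:2944972-2945221, minus) was marked in every line but HL-60. Capitals mark CCAAT on either strand:
ZNF100: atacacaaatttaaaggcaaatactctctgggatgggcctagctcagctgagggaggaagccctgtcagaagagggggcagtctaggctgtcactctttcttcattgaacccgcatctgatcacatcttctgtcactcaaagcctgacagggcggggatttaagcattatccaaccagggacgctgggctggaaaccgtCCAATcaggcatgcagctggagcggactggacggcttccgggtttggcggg
ZNF681: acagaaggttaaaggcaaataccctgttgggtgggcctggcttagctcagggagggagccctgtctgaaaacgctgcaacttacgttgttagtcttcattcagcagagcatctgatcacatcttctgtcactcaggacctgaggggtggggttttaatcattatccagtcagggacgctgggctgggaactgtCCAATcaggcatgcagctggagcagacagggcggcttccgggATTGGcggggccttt
ZNF77: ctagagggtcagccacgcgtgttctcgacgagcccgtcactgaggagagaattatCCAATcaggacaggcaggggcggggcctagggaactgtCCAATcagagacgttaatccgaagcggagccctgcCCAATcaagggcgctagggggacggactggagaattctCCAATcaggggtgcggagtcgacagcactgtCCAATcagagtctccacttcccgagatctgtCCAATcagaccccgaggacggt
The ZNF100 and ZNF681 windows were 78.5% identical in a global alignment, and the ZNF77 window was 55.9% identical to the first and 51.2% to the second. ZNF77 held 6 copies of CCAAT, ZNF681 2 and ZNF100 1 in these 250 bases.

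A dCas9 peak lay within 50 kb of the gene body of 16 of the 240 ZNF genes (6.67%, Wilson interval 4.14 to 10.6), against 3.40% of the other chromosome 19 coding genes and 3.19% of all coding genes. The other coding genes inside the clusters stood at 8.79% and the ZNF genes on other chromosomes at 6.36%. Of the 19 dCas9 peaks on chromosome 19, 11 lay inside ZNF clusters, which is 0.658 per Mb against 0.191 per Mb on the rest of the chromosome. The 16 genes shared 10 peaks, so they are not 16 separate events, and 8 of them sit in the ZNF175 to ZNF331 cluster. Within 10 kb of a peak there were 6 genes.

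The sites of the sgRNAs were themselves concentrated in the clusters. Chromosome 19 held 28 sites with an NGG PAM and no mismatch, of which 25 lay inside clusters, and 108 sites with at most 3 mismatches, of which 86 did (79.6%). The perfect sites fell in dCas9 peaks in 24 of 28 cases. Grouped into 57 loci of sites less than 2 kb apart, 11 loci lay in a dCas9 peak, and these took in all 7 loci with sites for all 4 sgRNAs and 9 of 15 with sites for at least 3.

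**Figure D5:**
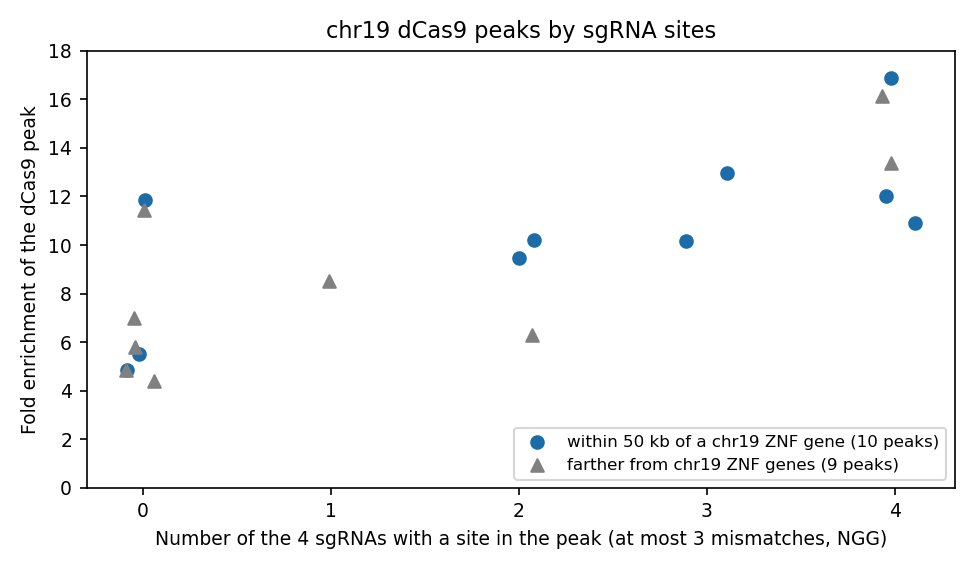
Fold enrichment (y axis) of the 19 chr19 dCas9 peaks in K562 cells with LTR2B sgRNAs, by how many of the 4 sgRNAs have a site in the peak (x axis, points spread sideways for legibility); circles are peaks within 50 kb of a chr19 ZNF gene and triangles the others. Of the 10 peaks near ZNF genes, 7 hold a site and 3 hold none.

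Start sites closest to dCas9 were those of ZNF888, ZNF611, ZNF320 and ZNF586, the members with a dCas9 peak within 1 kb of an annotated start. The peak 274 bp from ZNF888 (chr19:52923744-52924271) had a fold enrichment of 16.9, which ranked 28 of all 393 dCas9 peaks, and held sites of all 4 sgRNAs, that of sgRNA1 with the difference C8T (the base of the sgRNA, its position from the 5' end, the base of the site). It overlapped an H3K27ac peak in each of the 4 lines, which was also the peak at the ZNF888 start, with fold enrichments of 4.78 (HL-60), 9.75 (Molm13), 3.82 (OCI-AML3) and 4.27 (K562). A second peak, at 10.2 fold, overlapped the 3' end of the ZNF888 gene and reached beyond it. It held a perfect site of sgRNA4 and a site of sgRNA3 with C6T and T13C.

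The peak 303 bp from ZNF611 (chr19:52735376-52735925) had a fold enrichment of 12.01 and perfect sites for all 4 sgRNAs. It overlapped H3K27ac in OCI-AML3 (3.31) and K562 (3.94), in peaks of 1140 and 1857 bp that reached the ZNF611 start, and not in HL-60 or Molm13. There ZNF611 was marked as well, by peaks of 508 bp (5.55) and 478 bp (4.34) that did not reach the dCas9 peak. Another peak at 13.0 fold, 7827 bp beyond the other end of ZNF611 and 3911 bp from ZNF83, held perfect sites for sgRNA2, sgRNA3 and sgRNA4 and no H3K27ac in any line.

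The peak 866 bp from ZNF320 (chr19:52898559-52898704) was weaker at 5.50 fold and held no sgRNA site with up to 3 mismatches. It overlapped K562 H3K27ac (3.73), in the 3398 bp peak that covers the ZNF320 start. ZNF320 was marked in HL-60 (4.25) and K562 and not in Molm13 or OCI-AML3. The peak 941 bp from ZNF586 (chr19:57768283-57768714) had a fold enrichment of 10.2, perfect sites for sgRNA2 and sgRNA4 and a sgRNA3 site with T13C, and no H3K27ac overlap, while ZNF586 itself was marked in HL-60 (4.09), OCI-AML3 (2.44) and K562 (3.97). Within 50 kb of these and the neighbouring peaks lay also ZNF28, ZNF468, ZNF600, ZNF816, ZNF671, ZNF776 and ZNF552, and near weaker or farther peaks ZNF846 (9.48 fold, 21316 bp away) and ZNF792 (4.87 fold, 35903 bp away). ZNF321P, a pseudogene and therefore no member, overlapped the widest dCas9 peak (chr19:52935667-52937201, 1535 bp, 11.9 fold), which held no sgRNA site, overlapped H3K27ac in all 4 lines and lay within 50 kb of ZNF320, ZNF888 and ZNF816.

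In the ZNF101 to ZNF254 cluster a dCas9 peak of 10.9 fold with perfect sites for all 4 sgRNAs lay 5182 bp from ZNF486 and 34430 bp from ZNF90. It overlapped no H3K27ac, and both genes were unmarked in all 4 lines. They were the 2 unmarked genes among the 16. Of the 16, 14 were marked in K562, 11 in HL-60 and 10 in each of the other lines. For all 240 ZNF genes the marked shares were 67.5% (K562), 71.7% (HL-60), 65.8% (OCI-AML3) and 56.7% (Molm13). The 16 genes shared 10 peaks and 8 of the genes sit in the ZNF175 to ZNF331 cluster, so their marks are not independent. Whether these counts depart from the shares was not tested. The K562 H3K27ac list is recorded for the empty-vector sample, although its peak names say only K562 and dCas9, and the change that the sgRNAs bring was not analysed here.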

How the data were processed

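Peak lists from 5 ChIP-seq libraries of leukaemia cell lines (HL-60, Molm13, OCI-AML3 and K562 H3K27ac, and K562 LTR2B sgRNAs dCas9) were analysed, 1 library a group. Per the labels and methods, the authors trimmed reads with Trim Galore 0.4.5, aligned them to hg38 with Bowtie2 (version 2.3.4 in the submitters' processing notes), kept uniquely mapped reads, and called peaks with MACS2 2.1.1 at q 0.05, as broad peaks for H3K27ac. Reads in repeats are lost where they do not map uniquely. The deposited columns hold a display score, the fold enrichment as a ratio over local background, and −log10 p- and q-values; the dCas9 file also holds a summit offset, deposited by the authors in bp, which was not used. H3K27ac lists held regions weaker than q 0.05, and all were kept in the main values.

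Genes, exons and start sites came from GENCODE release 44. A gene was marked where its canonical start lay within 500 bp of a peak, and near dCas9 where its body lay within 50 kb of a peak; clusters joined starts at most 1 Mb apart, with at least 5 members. sgRNA sites needed an NGG PAM and at most 3 mismatches in 20 bases. Promoter features used 250 bases before to 50 after the start. Protein sequences were translated from the GENCODE canonical coding sequences in place of RefSeq proteins; fingers were counted by pattern and KRAB matches found with blastp 2.17.0 (E below 0.001) against residues 1 to 90 of ZNF10. Sequences were read from hg38, and sgRNAs from the study's oligonucleotide list. Intervals are Wilson 95% intervals (scipy 1.17.1; Newcombe's method for differences) and cover counting error only. No test was run. Distance and site searches were tested on simulated data.

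Genes named were those with a dCas9 peak within 1 kb of any start, the 5 with the highest fold enrichment per line, also among genes marked in that line only, up to 3 unmarked genes per cluster nearest its middle, the 5 with the widest peaks, those near the 5 strongest dCas9 peaks close to members, and those the study names; others were named after their values were seen. Some marker genes and sequences are not reported here. Members, gene lists and rules were chosen with earlier results of these data known.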

Additional observations from a re-analysis of the deposited data

How the results depend on the processing

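No paired analysis was possible because only 1 list per cell line could be scored and nothing was tested. Of 75 alternative values, 59 stayed within the main value's 95% interval (for shares and differences) or within 1.5 times of it (for counts); for the other 16 the cause was not tested, except where the setting itself keeps fewer peaks or genes. The Molm13 difference from other chromosome 19 coding genes reversed to -2.10 points with any annotated start site, which is inside its interval. With the start site inside the peak, the shares were 60.4% in HL-60, 57.1% in OCI-AML3 and 56.3% in K562, and 50 genes were marked in none. With peaks of q below 0.001 the shares were 59.2%, 57.9% and 57.5% in the same lines and the HL-60 difference was 23.7 points. With equal list lengths the shares were 51.2% in OCI-AML3 and 60% (144 genes) in K562, and the OCI-AML3 difference was 3.43 points. Against coding genes inside the clusters the differences were 25.7 points in K562, 22.4 in OCI-AML3 and 14.4 in Molm13. Without the HL-60 list, an alternative chosen after seeing the data, 54 genes were marked in none. Within 10 kb, 6 genes were near dCas9. A gap of 500 kb gave 10 clusters in place of 9. H3K27ac peak lists without read totals set no limit of detection, so an unmarked gene is one without a called peak and not one without the mark.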
